A study of Apis mellifera with 2 samples.

Results

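The cytosolic ribosomal protein genes of the honeybee, Apis mellifera, were taken by symbol, as the rows listed in both count matrices whose symbol starts with RpL or RpS and a digit, or with RpLP. This rule found 7 of 12245 genes. Described singly here are 6 of them, Rps14 of the small subunit and RpL35, RpL32, Rpl39, Rpl41 and RpLP1 of the large subunit, and counts and sums cover all 7. Further ribosomal protein genes may stand in the files under an identifier alone and were not analysed here, so a summed level below is the sum of these 7 genes and not of the whole family.

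Ribosomal proteins pack around the ribosomal RNAs into the small subunit, which reads the mRNA, and the large subunit, which joins the amino acids. Their mRNAs are short, abundant and translated in the cytoplasm, and cells hold the proteins in fixed proportions. Neurons and glia both need them, the former also for translation in axons and dendrites far from the cell body. Libraries made from nuclei hold the RNA of the nucleus and whatever cytoplasmic RNA stays with it, so that mature mRNAs of this kind are caught only in part.

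The study prepared nuclei from brains of forager bees, with compound eyes and ocelli removed, after the colonies were sprayed with bromocriptine (BRC), a dopamine receptor agonist, or with ddH2O alone. The sample titles speak of feeding and the protocol of a spray over the whole body, and the labels give 15 foragers per group, whereas the study's methods give a larger number of pooled brains per library, taken from several colonies. There was 1 library of pooled brains per condition, made with the same droplet 3′ kit. Replicates are therefore lacking and nuclei cannot stand in for them, so nothing was tested across samples, and the 95% intervals in parentheses cover counting error only.

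Each matrix listed 20000 barcodes, with 76531513 UMIs (unique molecular identifiers, which mark captured RNA molecules) in BRC and 77047419 in ddH2O, and 120 barcodes occurred in both. The kept nuclei were 15900 in BRC, at a median depth of 1923 UMIs, and 16717 in ddH2O, at 3264 UMIs, so depth and treatment cannot be told apart. Clusters named from the study's markers held 23.1% of BRC nuclei and 52.2% of ddH2O nuclei. The libraries also differed in genes taken as markers of gland and of neurons, and the tissue their RNA came from was not tested. The 4 gland genes Mrjp1, Mrjp2 and Mrjp3, which encode major royal jelly proteins, and Hbg3, which encodes an alpha-glucosidase, summed to 5979 CPM (UMIs per 1000000) in BRC and 727 in ddH2O, and the pan-neuronal markers fne, nSyb and Syt1 summed to 1848 and 5343 CPM.

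Rps14 of the small subunit differed little between the libraries over all kept nuclei. This gene, which encodes a protein of the platform of that subunit (NCBI gene 725168, linkage group 4, positions 5135231 to 5136489, Amel_HAv3.1), had 2930 UMIs or 73.8 CPM (71.2 to 76.5) in BRC and 4403 UMIs or 71.0 CPM (68.9 to 73.1) in ddH2O. Its log2 ratio of BRC over ddH2O was 0.057 (-0.011 to 0.12), an interval that includes 0. The sign depended on the choice of nuclei. It was 0.14 (0.027 to 0.26) in nuclei thinned to 1000 UMIs and -0.17 (-0.30 to -0.039) in nuclei with 3000 to under 5000 UMIs.

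Of the 5 genes of the large subunit, RpL35 and RpL32 were slightly higher in BRC, RpLP1 was slightly lower, and Rpl41 and Rpl39 were lower by more than 1.5-fold. RpL35, which in yeast sits at the mouth of the exit tunnel (NCBI gene 724191, linkage group 8, positions 2140482 to 2142333), had 69.7 CPM (67.1 to 72.3) in BRC and 61.6 CPM (59.7 to 63.6) in ddH2O, with a log2 ratio of 0.18 (0.11 to 0.25). RpL32, known in insects as rp49 and often used as a reference gene in quantitative PCR (NCBI gene 406099, linkage group 11, positions 10035231 to 10036482), had 37.6 CPM (35.7 to 39.5) in BRC and 34.5 CPM (33.1 to 36.0) in ddH2O, with a log2 ratio of 0.12 (0.026 to 0.22). Both intervals lay just above 0, but not under every choice of nuclei. RpL35 was at 0.044 (-0.037 to 0.12) without clusters with under 20 nuclei in a library and at 0.11 (-0.025 to 0.24) in nuclei with 3000 to under 5000 UMIs. RpL32 was at 0.013 (-0.066 to 0.091) over all barcodes, at 0.13 (-0.038 to 0.29) in nuclei thinned to 1000 UMIs and at -0.077 (-0.27 to 0.11) in nuclei with 3000 to under 5000 UMIs. RpLP1, an acidic protein of the stalk that recruits the elongation factors (NCBI gene 406120, linkage group 10, positions 10324175 to 10325596), had 103 CPM (99.9 to 106) in BRC and 120 CPM (117 to 122) in ddH2O, with a log2 ratio of -0.22 (-0.27 to -0.16).

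Rpl41 and Rpl39 encode proteins that are among the shortest of the ribosome. Rpl41, which in yeast lies at a contact between the subunits (NCBI gene 100191002, linkage group 11, positions 12183567 to 12184247), had 1245 UMIs or 31.4 CPM (29.6 to 33.2) in BRC and 3598 UMIs or 58.0 CPM (56.1 to 59.9) in ddH2O. This is a log2 ratio of -0.89 (-0.98 to -0.79), or 1.85-fold lower in BRC. Rpl39, which lines the wall of the exit tunnel (NCBI gene 724966, linkage group 16, positions 4644650 to 4645332), had 1159 UMIs or 29.2 CPM (27.5 to 30.9) in BRC and 3555 UMIs or 57.3 CPM (55.4 to 59.2) in ddH2O. Its log2 ratio was -0.97 (-1.07 to -0.88), or 1.96-fold lower in BRC. The intervals of the libraries were far apart for both genes, whereas the other 5 genes summed to 402 CPM in BRC and 410 CPM in ddH2O, a log2 ratio of -0.030 (-0.059 to -0.0015).

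**Figure D1:**
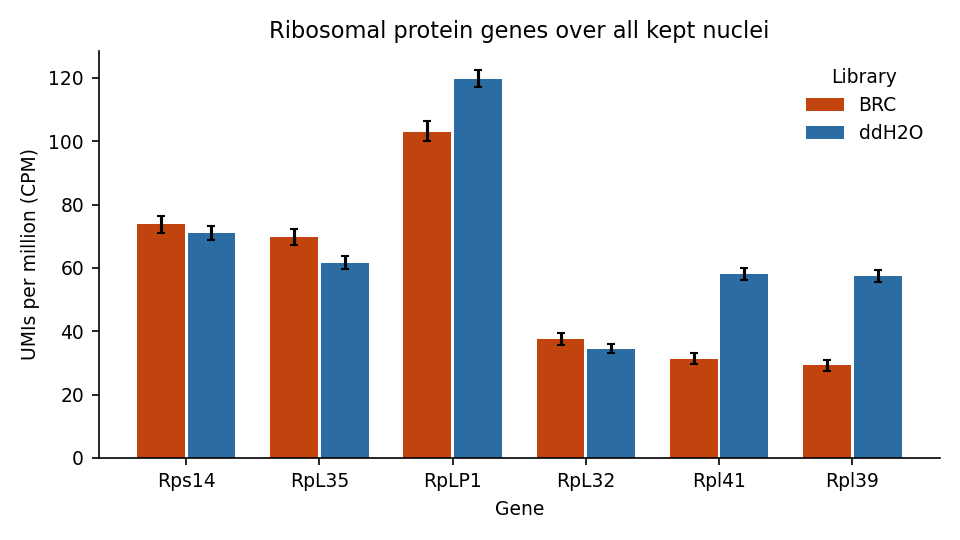
Level of 6 of the 7 genes in CPM over all kept nuclei of the BRC (red) and ddH2O (blue) library, with 95% counting intervals as error bars. Rpl41 (31.4 against 58.0 CPM) and Rpl39 (29.2 against 57.3 CPM) stand apart between the libraries, and the bars of the other genes are near each other. Levels of different genes are not comparable by height, since capture differs between transcripts.

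The genes Rpl41 and Rpl39 were grouped after their values were seen, and a shift of this size was common among all genes. Of the 10368 genes with at least 100 UMIs over both libraries, 21.6% were at least 1.5-fold lower in BRC and 23.9% at least 1.5-fold higher, against 2 of 7 and 0 of 7 of the ribosomal protein genes. The share of the 7 genes that was lower is thus near the background. A lower ratio than that of Rpl39 was found for 11.8% of these genes, and than that of Rpl41 for 13.4%. The median log2 ratio was -0.069 over the 7 genes and 0.0057 over all 10368 genes. At a fold of 2, 0 of the 7 genes were lower and 11.4% of all genes were.

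In the mix of the 7 transcripts, Rpl39 took 6.32% of their UMIs in BRC and 10.9% in ddH2O, and Rpl41 took 6.79% and 11.0%. Summed over Rpl39 and Rpl41, the share was 13.1% in BRC and 21.9% in ddH2O.

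Of the 7 genes, 3 overlap another gene model in the annotation of the reference, and whether the counting used strand was not given in the sources used here. Rps14 overlaps LOC413400 by 276 bp, RpL35 overlaps CTL5 by 741 bp and Rpl39 overlaps LOC413121 by 174 bp. The partner of Rpl39 had 230 UMIs in BRC and 435 in ddH2O, with a log2 ratio of -0.27 (-0.51 to -0.041), fewer than the 1159 and 3555 UMIs of Rpl39. The BRC matrix listed 390 features that ddH2O did not, of which 238 could be placed, and 0 of them lay within 3000 bp of one of the 7 genes. Rpl41 overlaps no other gene model. The part of annotation and of counting in the ratios of the 7 genes was not tested.

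The summed level of the 7 genes over all kept nuclei was 462 CPM (456 to 469) in BRC and 525 CPM (520 to 531) in ddH2O, or 0.0462% and 0.0525% of the UMIs. This gives 1.15 and 1.95 UMIs per nucleus, and a log2 ratio of -0.18 (-0.21 to -0.16). Rpl39 and Rpl41 alone summed to 60.6 CPM in BRC and 115 CPM in ddH2O. Over all nuclei, a change in the mix of cell types and a change of RNA per nucleus cannot be told apart.

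Levels were therefore taken by cell type. Kenyon cells (KC-like, the intrinsic neurons of the mushroom bodies), optic lobe cells (OLC-like) and astrocyte (AST-like), cortex (CG-like), ensheathing (EG-like) and surface glia (SG-like) could be named on clusters of the integrated libraries. Each cluster was named once for both libraries, not in each library by itself. The glial markers repo and bdl summed to 4608 CPM in BRC and 2089 CPM in ddH2O in AST-like nuclei, against 103 and 199 CPM in KC-like nuclei. In SG-like nuclei they summed to 1727 and 829 CPM, against 570 and 690 CPM over all kept nuclei. In ddH2O the pan-neuronal markers stood above them in AST-like (4672 CPM) and SG-like nuclei (4110 CPM). The same held in EG-like (4814 against 2037 CPM) and CG-like nuclei (1879 against 1820 CPM). The glial names are thus less secure in ddH2O than in BRC. KC-like nuclei, 1559 in BRC and 2932 in ddH2O, had a summed level of 412 CPM (389 to 435) in BRC and 546 CPM (532 to 561) in ddH2O. OLC-like nuclei, 393 and 1287, had 446 CPM (404 to 491) and 575 CPM (554 to 597). They pool clusters 10 and 14, which the libraries held in different proportions. Cluster 10, with 368 and 833 nuclei, had 451 CPM in BRC and 639 CPM in ddH2O. Cluster 14, with 25 and 454 nuclei, had 471 CPM in ddH2O. In both neuronal groups the intervals of the libraries did not overlap.

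Among glia, AST-like nuclei, 644 and 1329, had 432 CPM (398 to 468) in BRC and 521 CPM (501 to 543) in ddH2O. SG-like nuclei, 661 and 1540, had 488 CPM (452 to 526) and 572 CPM (552 to 592). EG-like nuclei, 174 and 432, had 325 CPM (268 to 392) and 521 CPM (486 to 558). CG-like nuclei, 236 and 1203, had 288 CPM (258 to 321) and 359 CPM (345 to 374), the lowest level of the 6 types in either library.

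The log2 ratio of the sum was -0.41 (-0.50 to -0.32) in KC-like, -0.37 (-0.52 to -0.22) in OLC-like, -0.27 (-0.40 to -0.14) in AST-like, -0.32 (-0.49 to -0.15) in CG-like, -0.68 (-0.98 to -0.39) in EG-like and -0.23 (-0.35 to -0.11) in SG-like nuclei. The sum was thus lower in BRC in 6 of 6 types, with intervals below 0. For 3 of the types this sign was not found without integration of the libraries, which gave groups of other sizes. Where each library was clustered and named by itself, OLC-like nuclei numbered 2593 in BRC and 2940 in ddH2O. AST-like nuclei were then 1339 and 1263, and CG-like nuclei 60 and 1192, so the same nuclei are not compared. The log2 ratio was 0.047 (-0.015 to 0.11) in OLC-like, 0.032 (-0.066 to 0.13) in AST-like and 0.34 (-0.098 to 0.74) in CG-like nuclei. It was then -0.63 in EG-like and -0.22 in SG-like nuclei, and KC-like nuclei had no named cluster in ddH2O. At a clustering resolution of 1.0, the OLC-like ratio was -0.057.

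**Figure D2:**
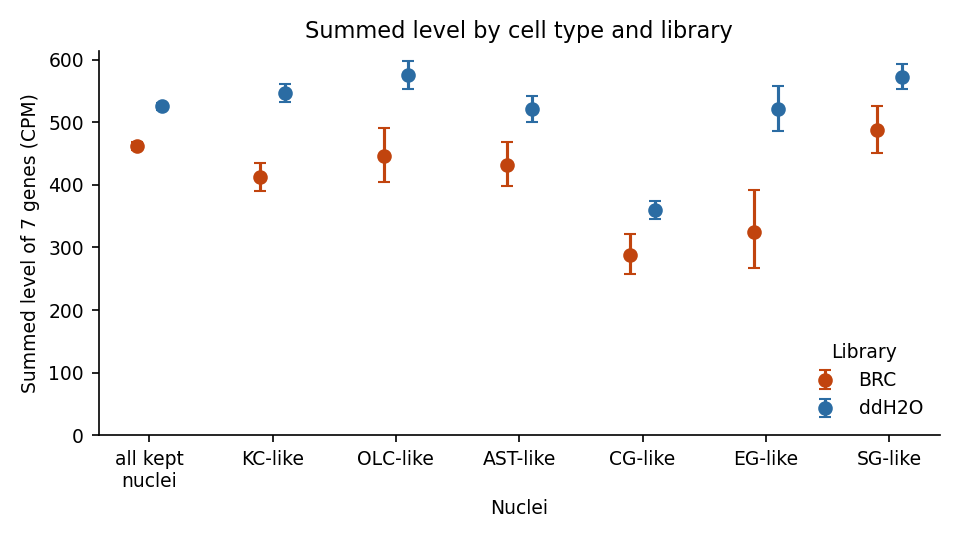
Summed level of the 7 genes in CPM over all kept nuclei and in each named cell type, for BRC (red) and ddH2O (blue), with 95% counting intervals as error bars. The red point lies below the blue one in each type, and CG-like nuclei have the lowest level in both libraries (288 and 359 CPM).

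Within BRC, the types ran from SG-like (488 CPM) over OLC-like, AST-like, KC-like and EG-like to CG-like nuclei (288 CPM), a 1.69-fold range. Between neighbours in this order, counting error separated only KC-like from EG-like nuclei, with a log2 ratio of 0.34 (0.059 to 0.63). Within ddH2O, the order was OLC-like (575 CPM), SG-like, KC-like, AST-like, EG-like and CG-like (359 CPM), a 1.60-fold range. Here SG-like and KC-like differed by a log2 ratio of 0.066 (0.0023 to 0.13) and EG-like and CG-like by 0.54 (0.42 to 0.65), and the intervals of the other neighbours included 0.

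CG-like nuclei stood below the sum of the other named types by a log2 ratio of -0.58 (-0.75 to -0.42) in BRC and -0.62 (-0.68 to -0.55) in ddH2O. They were also the deepest of the 6 types, at a median depth of 3769 UMIs in BRC and 4851 UMIs in ddH2O. Among nuclei with 3000 to under 5000 UMIs alone, the CG-like level was 294 CPM in BRC and 419 CPM in ddH2O. The other types then had 306 to 500 CPM in BRC, with the exception of EG-like nuclei at 184 CPM from 16 nuclei, and 497 to 573 CPM in ddH2O. Counts were small in BRC, where the CG-like level rests on 53 UMIs from 45 nuclei. The 306 CPM of AST-like nuclei rest on 92 UMIs, so the order of these types in BRC is uncertain at this depth. CG-like nuclei also had the lowest share of mitochondrial UMIs of the 6 types, 0.0269% in BRC and 0.0424% in ddH2O.

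RNA of the gland genes moved with the library in every type. Mrjp1, Mrjp2, Mrjp3 and Hbg3 summed to 6138 CPM in BRC and 722 CPM in ddH2O in KC-like nuclei, which are not gland cells, and to 2469 and 424 CPM in CG-like nuclei, the lowest of the types in both libraries. The pan-neuronal markers were at 4926 and 6626 CPM in KC-like nuclei. In AST-like nuclei they stood at 715 CPM in BRC and 4672 CPM in ddH2O. The part of RNA from outside the nuclei in the levels of the 7 genes was not tested.

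By gene, Rpl39 and Rpl41 were lower in BRC by more than 1.5-fold in each of the 6 types, with intervals below 0, although Rpl41 had under 100 UMIs in EG-like nuclei and is not counted as past the fold there. In KC-like nuclei Rpl39 had 23.1 CPM from 71 UMIs in BRC and 63.6 CPM from 624 UMIs in ddH2O, a log2 ratio of -1.46 (-1.83 to -1.10). Rpl41 had 28.7 and 63.8 CPM there, a log2 ratio of -1.15 (-1.49 to -0.83). In CG-like nuclei Rpl41 was lower still, with 13 UMIs or 11.4 CPM in BRC and 265 UMIs or 40.3 CPM in ddH2O, a log2 ratio of -1.83 (-2.75 to -1.03), whereas Rpl39 had 24.5 and 37.6 CPM, a log2 ratio of -0.62 (-1.24 to -0.050).

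In EG-like nuclei both genes had 7 UMIs in BRC, against 86 for Rpl41 and 102 for Rpl39 in ddH2O, with log2 ratios of -1.45 (-2.81 to -0.35) and -1.70 (-3.05 to -0.60). In OLC-like nuclei the log2 ratio was -0.92 for Rpl41 and -0.90 for Rpl39. In AST-like nuclei it was -0.86 and -0.89, and in SG-like nuclei -0.99 and -0.82. Among all genes with at least 100 UMIs, 23.3% were at least 1.5-fold lower in BRC in KC-like nuclei, 22.1% in OLC-like, 24.3% in AST-like, 19.1% in CG-like, 32.5% in EG-like and 27.2% in SG-like nuclei. At least 1.5-fold higher were 10.9%, 10.9%, 21.9%, 18.7%, 17.5% and 19.1% of them, against 0 of the 7 genes in each type. Of the 7 genes, 2 met this fold in each type among those with at least 100 UMIs, which were all 7 genes except in EG-like nuclei, where they were 4 and those past the fold were Rps14 and Rpl39. In KC-like nuclei the median log2 ratio was -0.16 over the 7 genes and also over all genes tested. It was -0.26 against -0.12 in OLC-like, -0.22 against 0.0093 in AST-like, -0.31 against 0.050 in CG-like and -0.24 against -0.068 in SG-like nuclei, and -0.58 against -0.13 in EG-like nuclei over the 4 genes.

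The other 5 genes gave 30 pairs of a gene and a type. The interval lay below 0 in 6 of these pairs and above 0 in none of the 42 pairs of all 7 genes, and in 2 of the 30, Rps14 and RpL35 in EG-like nuclei, the level was more than 1.5-fold lower, for RpL35 from under 100 UMIs. The share of all genes with intervals below or above 0 was not computed, so the interval counts have no background beside them. RpLP1 accounted for 5 of the 6, with log2 ratios from -0.52 in KC-like to -0.28 in AST-like nuclei. In KC-like nuclei it had 83.7 CPM in BRC and 120 CPM in ddH2O. The remaining pair was RpL35 in EG-like nuclei, with 6 UMIs or 17.6 CPM in BRC and 79 UMIs or 51.5 CPM in ddH2O, a log2 ratio of -1.55 (-3.04 to -0.36).

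The intervals of Rps14 and RpL32 included 0 in all 6 types. Rps14 had log2 ratios from -0.64 in EG-like to 0.10 in AST-like nuclei, and RpL32 from -0.26 in OLC-like to 0.23 in CG-like nuclei. RpL35 reached 0.24 (-0.086 to 0.56) in SG-like nuclei. Summed over the 5 genes, the log2 ratio was -0.22 (-0.32 to -0.12) in KC-like, -0.25 (-0.42 to -0.088) in OLC-like and -0.49 (-0.81 to -0.18) in EG-like nuclei. In AST-like, CG-like and SG-like nuclei it was -0.14, -0.16 and -0.092, with intervals that included 0. The median log2 ratio over all genes tested was -0.16 in KC-like and -0.12 in OLC-like nuclei, within the intervals of the 5 genes there. In EG-like nuclei that median was -0.13, outside the interval.

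**Figure D3:**
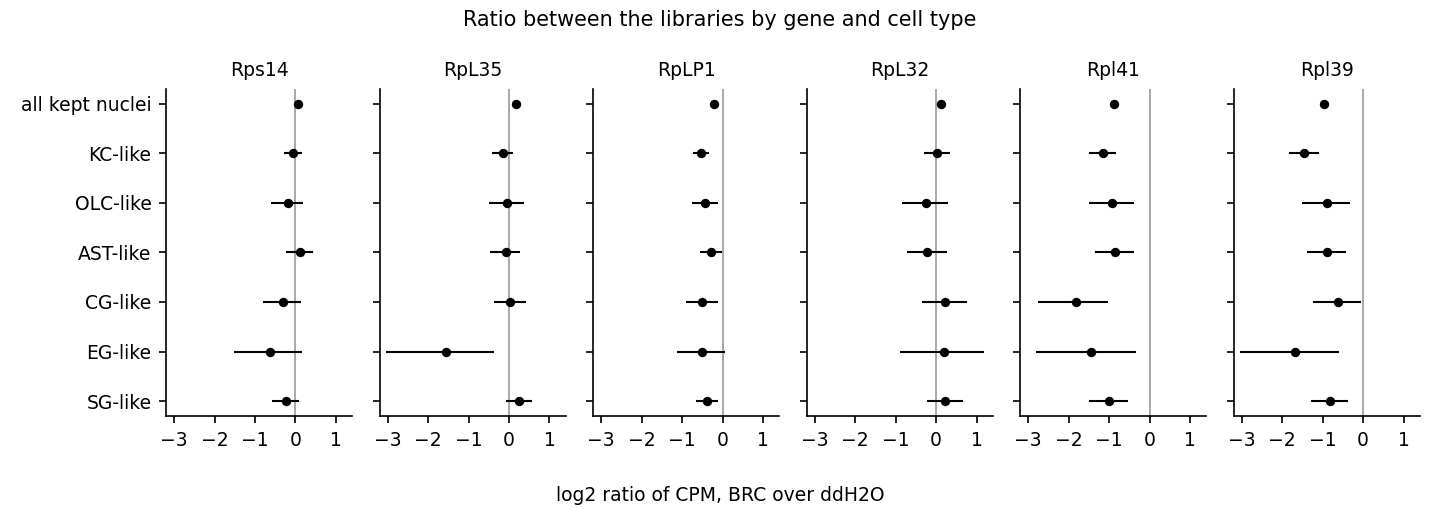
Log2 ratio of CPM, BRC over ddH2O, of 6 of the 7 genes over all kept nuclei and in each named cell type, with 95% counting intervals as bars and a grey line at 0. All points and intervals of Rpl41 and Rpl39 lie below 0, and the points of RpLP1 lie below 0 too. Those of the other genes lie on both sides of 0. The farthest from 0 among these are RpL35 (-1.55) and Rps14 (-0.64), both in EG-like nuclei.

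The mix of the 7 transcripts varied less across types in ddH2O than in BRC. Rps14 took from 13.1% to 13.9% of their UMIs across the 6 types in ddH2O and from 13.2% to 17.4% in BRC, and Rpl41 from 10.7% to 11.7% and from 3.95% to 7.75%. The counts per type were several times smaller in BRC, where EG-like nuclei held 111 UMIs of the 7 genes in all against 800 in ddH2O. RpL35 varied most in both libraries, from 9.88% in EG-like to 15.0% in CG-like nuclei of ddH2O, and from 5.41% in EG-like to 19.1% in CG-like nuclei of BRC. CG-like nuclei, the lowest of the types in the summed level, had 55.2 CPM of RpL35 in BRC and 53.9 CPM in ddH2O, close to the 54.1 and 60.2 CPM of KC-like nuclei.

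The summed level changed with the depth of the nucleus, and the direction between the libraries changed with it. In ddH2O it was 638 CPM (626 to 650) in nuclei with 2000 to under 3000 UMIs, 530 CPM (522 to 538) with 3000 to under 5000, 389 CPM (378 to 399) with 5000 to under 10000 and 299 CPM (270 to 331) with 10000 or more. In BRC it was 560 CPM (541 to 580) under 1500 UMIs, 500 CPM (483 to 517) from 1500 to under 2000, 437 CPM (424 to 451) from 2000 to under 3000 and 405 CPM (392 to 419) from 3000 to under 5000. In the deeper BRC nuclei it was 453 CPM (436 to 470) from 5000 to under 10000 UMIs, from 933 nuclei, and 452 CPM (425 to 481) with 10000 or more, from 191 nuclei.

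By depth group, the log2 ratio of the sum was -0.55 (-0.60 to -0.49) from 2000 to under 3000 UMIs and -0.39 (-0.44 to -0.34) from 3000 to under 5000. The first of these groups is not matched in depth, since ddH2O starts at 2475 UMIs, and its nuclei had median depths of 2392.5 UMIs in BRC and 2708 UMIs in ddH2O. In deeper nuclei the ratio was above 0, at 0.22 (0.15 to 0.29) from 5000 to under 10000 UMIs and 0.60 (0.42 to 0.77) at 10000 or more. The cell types in these groups differed between the libraries too. Glial markers were at 361 CPM in BRC and 846 CPM in ddH2O in nuclei with 5000 to under 10000 UMIs, and at 414 and 1628 CPM above that.

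**Figure D4:**
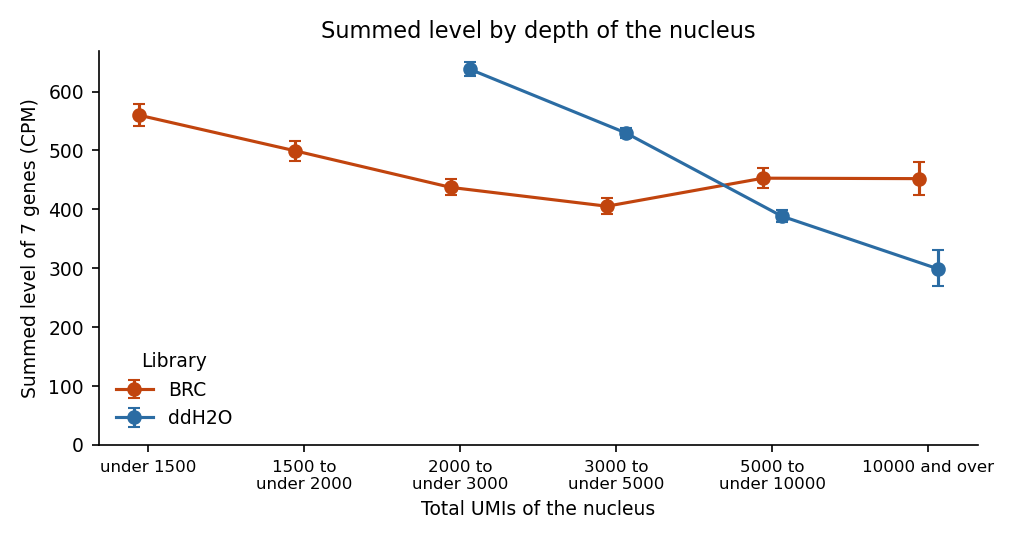
Summed level of the 7 genes in CPM by total UMIs of the nucleus, for BRC (red) and ddH2O (blue), with 95% counting intervals as error bars. The blue line falls from 638 to 299 CPM, and the red line falls from 560 to 405 CPM and is higher again in deep nuclei, so that the lines cross between the group from 3000 and the group from 5000 UMIs. No ddH2O barcode had under 2475 UMIs.

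Rpl41 and Rpl39 kept their sign in all 4 depth groups that both libraries share. Rpl41 had log2 ratios of -1.21, -1.11, -0.64 and -0.66 from the shallowest to the deepest group, and Rpl39 of -1.32, -1.34, -0.47 and -0.43, with an interval that included 0 for Rpl39 in the deepest one (-1.14 to 0.29). Rps14 changed sign. It had log2 ratios of -0.37 and -0.17 in the groups under 5000 UMIs and of 0.58 and 0.87 in the deeper ones. RpLP1 ran from -0.58 to 0.56, RpL32 from -0.14 to 1.22 and RpL35 from -0.15 to 0.99.

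Within nuclei of 3000 to under 5000 UMIs, the sum was lower in BRC in each named type. The log2 ratio was -0.46 (-0.73 to -0.20) in KC-like, -0.70 (-1.02 to -0.40) in AST-like, -0.51 (-0.94 to -0.11) in CG-like and -0.70 (-1.001 to -0.41) in SG-like nuclei. It was -0.19 (-0.49 to 0.11) in OLC-like nuclei. EG-like nuclei had -1.47, which rests on 11 UMIs from 16 BRC nuclei. With all nuclei thinned to 1000 random UMIs, which left out 0 of them, the log2 ratio was -0.19 (-0.23 to -0.15) over all kept nuclei and ran from -0.61 in EG-like to -0.28 in AST-like nuclei.

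Across clusters with at least 50 nuclei in a library, the summed level ran from 288 to 1479 CPM over 23 clusters of BRC and from 359 to 760 CPM over 20 clusters of ddH2O. The lowest was the CG-like cluster in both. The clusters high in the 7 genes were also high in UMIs of the mitochondrial genome, with a Pearson r of 0.81 between log2 CPM and the log2 mitochondrial share in BRC and of 0.83 in ddH2O. Without the highest cluster of each library r was 0.72 and 0.82. With the log2 median depth of the cluster, r was -0.20 in BRC and -0.72 in ddH2O. These are descriptions over clusters of 1 library each, which share that library, its depth and its composition.

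**Figure D5:**
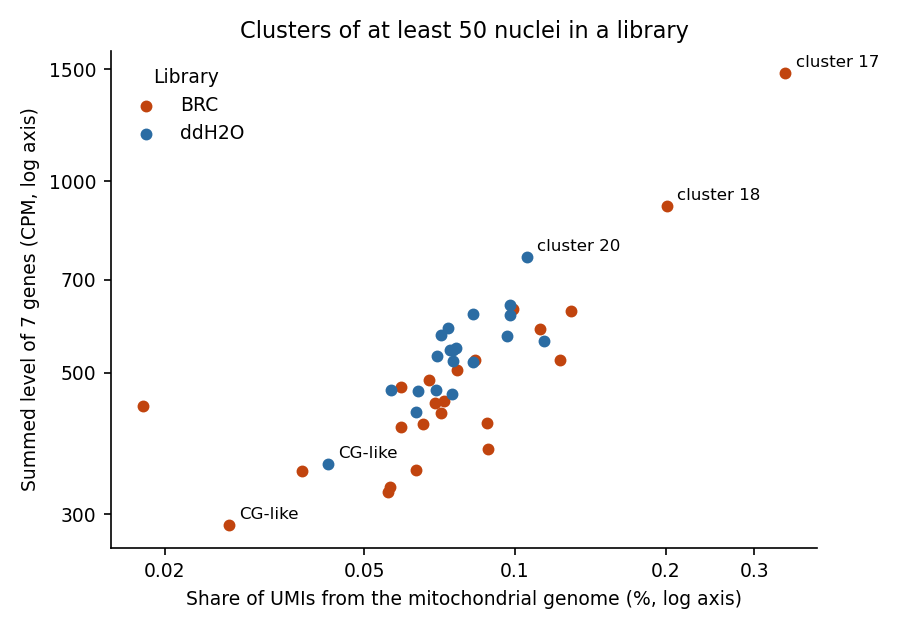
Summed level of the 7 genes in CPM against the share of UMIs from the mitochondrial genome in percent, both on log axes, with a point for each cluster of at least 50 nuclei in BRC (red) or ddH2O (blue). Clusters 17 (1479 CPM) and 18 (915 CPM) of BRC lie at the upper right, above the highest cluster of ddH2O (760 CPM), and the CG-like clusters at 288 and 359 CPM lie at the lower left.

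Of the 18 clusters with at least 50 nuclei in both libraries, 16 had a lower sum in BRC. The exceptions were cluster 18, with 915 CPM (803 to 1037) in BRC and 463 CPM (422 to 507) in ddH2O, and cluster 23, with 626 CPM (510 to 761) and 561 CPM (507 to 620). Rpl39 and Rpl41 were lower in BRC in 17 of the 18 clusters each, and how often other genes were so was not computed. Without the clusters that had under 20 nuclei in a library, a choice made after seeing the data, the log2 ratio of the sum over all nuclei was -0.23.

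The genes most like the summed level of the 7 genes across clusters were sought among 9157 genes by the Pearson r of log2 CPM, taking the smaller r of the libraries. The first 8 were LOC410188, LOC413137, LOC409294, LOC107964351, LOC409861, LOC413296, LOC726171 and LOC411832, with r from 0.87 down to 0.83 over 23 clusters of BRC and 20 of ddH2O. LOC410188 had 72.5 CPM in BRC and 80.7 CPM in ddH2O, a log2 ratio of -0.15, and LOC107964351 had 59.4 and 103 CPM, a log2 ratio of -0.80. The reference table used here gives no product name for them.

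Other genes of translation and of energy metabolism were compared by lists of symbols. The 4 translation factors summed to 1465 CPM in BRC and 1417 CPM in ddH2O, a log2 ratio of 0.048 (0.033 to 0.063), with 1 gene at least 1.5-fold lower and 1 higher. Ef-1a-f1, a gene of elongation factor 1-alpha, had 173 CPM in BRC and 608 CPM in ddH2O, a log2 ratio of -1.81, and its paralog EF1a-F2 had 393 and 194 CPM, a log2 ratio of 1.01. How reads that match both of these near copies were counted was not tested, so both values are uncertain. Eif4g, the scaffold of the initiation complex, had 888 and 603 CPM, a log2 ratio of 0.56, and Eif3h had 12.0 and 12.2 CPM.

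The 7 nuclear genes of the respiratory chain and ATP synthase summed to 317 CPM in BRC and 594 CPM in ddH2O, a log2 ratio of -0.91 (-0.94 to -0.88). Of them, 5 were at least 1.5-fold lower in BRC and 0 were higher, beside the background of 21.6% and 23.9%. ATP5G2 alone made up most of the sum, with 197 CPM in BRC and 367 CPM in ddH2O, a log2 ratio of -0.90. Uqcr11, a subunit of complex III, had 20.2 and 53.8 CPM, a log2 ratio of -1.42. Cox6b1 of complex IV had 26.2 and 63.5 CPM, a log2 ratio of -1.27, and Ndufs1 of complex I had 35.3 and 41.9 CPM, a log2 ratio of -0.25. This list was lower in BRC in 6 of 6 types, with log2 ratios from -1.07 in KC-like to -0.60 in CG-like nuclei. The 13 protein genes of the mitochondrial genome summed to 775 and 767 CPM, a log2 ratio of 0.015 (-0.0059 to 0.036).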

How the data were processed

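The deposited matrices give UMI counts per gene for each barcode, made by the authors with Cell Ranger (version 7.2.0 in the BRC header, 7.0.1 in that of ddH2O and in the submitters' notes) on Amel_HAv3.1 without normalization. Rows were paired by symbol or locus tag, and columns of other samples numbered 0.

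The study's filters (the ratio of log10 genes to log10 UMIs above 0.85, 200 to 5000 genes, mitochondrial UMIs below 5%) left 18696 BRC and 19878 ddH2O nuclei. Doublets (2796 and 3161) were found with a Python version of the Scrublet method and removed at 0.8% per 1000 nuclei. Seurat 5.3.0 (SeuratObject 5.2.0, R 4.3.3) integrated the libraries by CCA on 50 principal components of 2000 variable features per library, none of them a ribosomal protein gene, and clustered them at a resolution of 0.5. Other steps used scipy 1.17.1, numpy 2.4.6, scikit-learn 1.9.0, pandas 2.3.3 and matplotlib 3.10.9 under Python 3.11.15.

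A cluster was named where at least 3 of the study's markers of a type and its lineage were raised 1.5-fold over the library's other clusters (5 CPM added to both), on the geometric mean of the libraries. An own marker of the type also had to be raised 1.5-fold in each library. The 10 leading genes of the cluster had to hold no more markers of another type, and each library at least 20 of its nuclei. OPN met no cluster.

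UMIs were summed per type and library and divided by the total over the 12245 shared genes. Intervals are exact Poisson (CPM) and exact conditional (ratios, 95%), checked on simulated Poisson counts. A gene counts as lower or higher past 1.5-fold, with at least 100 UMIs over both libraries. No p-values were computed. The 7 genes met the rule for named genes (highest, lowest, largest and smallest ratio, widest range across types, or role), which also takes the 8 genes most alike across clusters. Lists were chosen by symbol, and none of the symbols was of a mitochondrial ribosomal protein or of ribosome biogenesis. The members and lists were chosen with earlier results of these data known. The values of 1 of the 7 genes by itself are not reported here.

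Alternatives were doublets kept, over 500 genes, no integration, resolution 1.0, ribosomal protein genes allowed as variable features, thinning to 1000 UMIs, means of shares per nucleus, totals without the 20 most abundant genes, median-of-ratios scaling, a fold of 2 and a minimum of 20 UMIs. Those added after seeing the data were nuclei with 3000 to under 5000 UMIs, all barcodes, and leaving out clusters with under 20 nuclei in a library.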

Additional observations from a re-analysis of the deposited data

Results flagged for a closer look

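A pair of unnamed clusters of BRC had a summed level of the 7 genes above that of every cluster of ddH2O, where the highest was 760 CPM. Cluster 17, with 358 BRC and 13 ddH2O nuclei, had 1479 CPM (1408 to 1552), with RpLP1 at 407 CPM and Rpl39 at 98.8 CPM. Its share of mitochondrial UMIs was 0.346%, the highest of the BRC clusters, and its median nucleus had 1828.5 UMIs. Its gland genes summed to 9228 CPM, against 5979 CPM over all kept BRC nuclei. High gland levels were also found in BRC clusters without a high sum of the 7 genes. Cluster 19 had 11685 CPM of the gland genes at a sum of 443 CPM, and cluster 15 had 8497 CPM at 524 CPM. Vg, which encodes the yolk protein vitellogenin and marks the fat body, had 363 CPM in cluster 17, against at most 33.9 CPM in the other BRC clusters of at least 50 nuclei and 24.6 CPM over all kept BRC nuclei. Cluster 18, with 106 BRC nuclei, had 915 CPM (803 to 1037), a mitochondrial share of 0.201% and 8570 CPM of the gland genes, against 463 CPM, 0.0749% and 572 CPM in its 247 ddH2O nuclei. The part of these measures in the summed level was not tested.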

How the results depend on the processing

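Over all kept nuclei, the log2 ratio of the sum stayed below 0 under 9 of 9 alternatives, from -0.39 to -0.17. These do not include the deeper nuclei, where it was above 0, at 0.22 from 5000 to under 10000 UMIs and 0.60 at 10000 or more. It was -0.39 in nuclei with 3000 to under 5000 UMIs, -0.23 without clusters with under 20 nuclei in a library and -0.24 over all barcodes. RpL32 was -0.077 in nuclei with 3000 to under 5000 UMIs and 0.013 over all barcodes, and RpL35 was 0.044 without clusters with under 20 nuclei in a library. Rps14 was 0.14 in nuclei thinned to 1000 UMIs and -0.17 in nuclei with 3000 to under 5000 UMIs. Rpl39 ran from -1.34 to -0.92 and Rpl41 from -1.11 to -0.86 over their 9 alternatives each. At a fold of 2, 0 of the 7 genes were lower, against 2 at 1.5. Without integration, which gave groups of other sizes, the sum was at 0.047 in OLC-like, 0.032 in AST-like and 0.34 in CG-like nuclei. No value could be had in KC-like nuclei, which had no named ddH2O cluster. The OLC-like ratio was -0.057 at resolution 1.0. Median-of-ratios scaling put KC-like nuclei at -0.25. In nuclei with 3000 to under 5000 UMIs, the ratio was -0.19 in OLC-like, -0.70 in AST-like, -0.51 in CG-like, -1.47 in EG-like and -0.70 in SG-like nuclei. With doublets kept, no cluster was named SG-like, so that no value could be had. For these, the cause was not tested. No other alternative moved the ratio of the sum, over all nuclei or in a type, by more than its counting interval. No paired analysis was possible because each condition has 1 library, and no replicate could be left out. Depth limits the members by type most in EG-like nuclei of BRC, where Rpl39, Rpl41 and RpL35 rest on 7, 7 and 6 UMIs.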

Other observations

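By length of the gene model, the 316 genes of up to 1000 bp, among them Rpl39 and Rpl41, had a median log2 ratio of -0.15, and 31.3% were at least 1.5-fold lower in BRC. Among the 1505 genes from 1000 to 2000 bp, which include the other 5 ribosomal protein genes, the median was -0.11 and 22.1% were lower. Genes from 2000 to 5000 bp, 5000 to 20000 bp and over 20000 bp had medians of -0.023, 0.046 and -0.020, and 18.9%, 19.6% and 30.3% of them were lower.

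Single genes of the mitochondrial genome differed in sign. COX1 had 352 CPM in BRC and 387 CPM in ddH2O, CYTB had 34.9 and 48.3 CPM, and ND1 had 27.9 and 17.5 CPM, with log2 ratios of -0.14, -0.47 and 0.67. By type, the sum of these 13 genes was lower in BRC by a log2 ratio of -0.36 in KC-like, -0.27 in OLC-like, -0.66 in CG-like, -0.57 in EG-like and -0.52 in SG-like nuclei. In AST-like nuclei the log2 ratio was -0.080 (-0.18 to 0.023), an interval that includes 0.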
